A study of Mus musculus with 12 samples.

Results

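The genes described here are 8 enzymes of inflammatory small-molecule metabolism: Nos2, Arg1, Ass1, Acod1, Gch1, Ch25h, Ido1 and Kynu. They were chosen by name for their place in nitric oxide, arginine, itaconate, biopterin, oxysterol and kynurenine metabolism. All 8 were found, 1 row each, among the 53341 genes of the table, and 6 of them passed the filter on low values and were tested with 18139 genes in all. Arg1 and Kynu did not pass it and are given by their values only.

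Fibroblast-like synoviocytes, which form the lining of joints together with macrophages, were grown from mice that the labels call SoxC mice. The SOXC transcription factors are Sox4, Sox11 and Sox12. The study sequenced polyadenylated RNA in 12 libraries, 3 for each of 4 groups. Control cells received Ade5CMV-eGFP, an adenovirus with a fluorescent protein (group control), and knockout cells received Ade5CMV-Cre, an adenovirus carrying Cre recombinase (group SoxC_KO). The other groups, control_TNF and SoxC_KO_TNF, also received 10 ng/mL recombinant human TNF, an inflammatory cytokine, for 16 h. Every group was thus exposed to an adenovirus, and no group without virus was analysed. The CMV promoter that drives eGFP and Cre is active in most cell types. The sources used here do not give the age, strain or alleles of the mice, nor say if the 3 libraries of one group are separate cultures or animals. The p-values therefore measure only the spread between libraries, and that spread may be technical. The question of the series is how far TNF-regulated transcription needs SOXC.

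Nos2 makes nitric oxide from arginine and leaves citrulline, which Ass1 starts to turn back into arginine. Arg1 splits the same arginine into ornithine and urea. Gch1 is the rate-limiting enzyme for tetrahydrobiopterin, a cofactor that nitric oxide synthases need. Acod1 makes itaconate, a metabolite that inhibits succinate dehydrogenase, from cis-aconitate. Ch25h makes 25-hydroxycholesterol, and Ido1 and Kynu act at the start and further down the breakdown of tryptophan through kynurenine. These genes are best known from activated macrophages, and Arg1 and Ass1 also from the urea cycle of the liver.

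Values are the authors' normalized counts, which sum to 19600000 to 23100000 per library. The commonest low value put 1 read pair at 1.51 to 2.68 normalized counts, a rough estimate that gives 8140000 to 13700000 read pairs per library. The libraries numbered 3 stood apart on the first principal component in every group (51.6% of the variance). Sox4, which Cre was meant to remove, ranged from 1857 to 4238 in control and 548 to 1433 in SoxC_KO, and from 1625 to 3646 in control_TNF and 601 to 1086 in SoxC_KO_TNF. Sox11 was 153 to 272 in control against 26.8 to 175 in SoxC_KO, and Sox12 162 to 352 against 194 to 259. With TNF the groups did not overlap, with Sox11 at 138 to 248 against 29.5 to 104.5 and Sox12 at 237 to 326 against 86.5 to 159. The sources used here do not say which exons Cre deletes, so reads from undeleted parts may count here. The 10 synoviocyte markers summed to 168670 to 463365 per library. Of 14 macrophage markers, Lyz2 was at 677 to 2438, Cd14 at 278 to 815, Csf1r at 193 to 670 and Adgre1 at 52.7 to 144, while Ptprc, Cx3cr1, Fcgr1 and C1qa did not exceed 19.1 in any library. The list summed to 3593, 4170, 4175 and 3625 in the libraries numbered 3 and to 1481 to 2188 in the other 8, with Lyz2 at 2172 to 2438 in the libraries numbered 3 and at 677 to 1014 in the others. Mrc1, of the same list, was at 20.6, 26.4, 0 and 16.6 in the libraries numbered 3 and at 16.7 to 42.0 in the others. The macrophage sum therefore does not show that more macrophages were present in the libraries numbered 3. The neutrophil list, nearly all Camp and S100a8, was higher with TNF for each of the 6 same-numbered pairs, from 482 to 1411 in control and 807 to 2376 in control_TNF, and from 560 to 1838 in SoxC_KO and 790 to 2044 in SoxC_KO_TNF. It was highest in the libraries numbered 3 in each group. The other listed neutrophil markers, S100a9, Ly6g, Mpo, Elane, Ngp and Ltf, did not exceed 8.71 in any library. The sum therefore does not show that neutrophils were present, and its part in the results below was not tested. The listed skeletal muscle genes other than Acta1 were highest in SoxC_KO replicate 1 and SoxC_KO_TNF replicate 1. Myh4 was at 188 and 277 there and at most 13.3 elsewhere. Acta1 was at 664 and 564 in this pair and highest in SoxC_KO replicate 3, at 1146. The sum of the list was also highest in SoxC_KO replicate 3, at 1285, against 1226 and 1247 in the pair. The 11 hepatocyte markers summed to 678 in control_TNF replicate 2 and 4697 in SoxC_KO_TNF replicate 1, and to 2.98 to 83.2 in the other 10.

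Promoter stretches are shown for the 4 enzymes found in the RefSeq promoter table (build GRCm38.p6). Nos2, Arg1, Ido1 and Kynu were not found in it. The 4 shown rose with TNF in at least 1 of the fits below, but were not chosen for that. Each stretch starts 250 bases before the RefSeq start and ends before the first annotated transcript base. Capitals mark matches to GGG and CC spaced by 5 bases, loose letters for the kappa B element bound by NF-kB, and to ACAAAG, letters of the SOX core, on either strand. Acod1 (chr14:103046762-103046976) and Ass1 (chr2:31470020-31470206) are read on the plus strand, and Ch25h (chr19:34475165-34475398) and Gch1 (chr14:47189414-47189663) on the minus strand.
Acod1: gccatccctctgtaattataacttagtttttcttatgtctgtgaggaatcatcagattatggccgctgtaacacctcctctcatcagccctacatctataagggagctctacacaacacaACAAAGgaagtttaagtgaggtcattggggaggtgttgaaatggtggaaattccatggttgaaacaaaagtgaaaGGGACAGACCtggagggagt
Ch25h: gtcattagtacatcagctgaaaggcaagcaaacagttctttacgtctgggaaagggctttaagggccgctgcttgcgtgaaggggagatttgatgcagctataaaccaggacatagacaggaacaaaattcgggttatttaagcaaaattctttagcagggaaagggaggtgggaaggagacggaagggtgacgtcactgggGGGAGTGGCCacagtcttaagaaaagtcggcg
Gch1: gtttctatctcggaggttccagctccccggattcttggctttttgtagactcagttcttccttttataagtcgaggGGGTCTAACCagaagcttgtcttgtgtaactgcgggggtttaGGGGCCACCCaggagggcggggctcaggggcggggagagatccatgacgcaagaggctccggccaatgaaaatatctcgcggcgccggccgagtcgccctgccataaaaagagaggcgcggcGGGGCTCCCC
Ass1: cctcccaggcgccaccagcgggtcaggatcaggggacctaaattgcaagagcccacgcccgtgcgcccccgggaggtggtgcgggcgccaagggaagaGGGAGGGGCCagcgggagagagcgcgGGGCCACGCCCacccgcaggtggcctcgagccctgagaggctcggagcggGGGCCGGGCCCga
Acod1 held 1 kappa B match, 55 to 46 bases before the start, and 1 ACAAAG match, 130 to 125 bases before it. Ch25h held 1 kappa B match, 48 to 39 bases before the start. Gch1 held 3 and Ass1 6 in the whole 250 bases, some overlapping, with 1 of the 6 past the end of the printed stretch. Among all 32851 promoter windows of 250 bases, 45.8% held at least 1 kappa B match and 23.2% at least 2, so such matches are common. ACAAAG was in 16.5% of windows, and the other SOX letters searched, ACAATG, were in 10.7% of windows and in none of the 4 shown. These are matches of letters, not measured binding sites.

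Set per kilobase of annotated exon, the levels spanned several orders. Ass1 was the highest, with a mean over the 12 libraries of 8404 normalized counts per kb (5157 to 13368). Ch25h followed at 2236 (1051 to 3484) and Nos2 at 1956 (537 to 3968). The ranges of Ch25h and Nos2 overlapped, so their order is not fixed by these libraries. Gch1 at 161 (58.6 to 368) and Acod1 at 137 (29.3 to 281) also overlapped. Ido1 stood at 12.1 per kb (5.29 to 23.8), Arg1 at 2.53 (0 to 16.9) and Kynu at 0.059 (0 to 0.421). Control cells without TNF already held Ass1 at a mean of 6148, Ch25h at 1191 and Nos2 at 962 per kb.

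**Figure D1:**
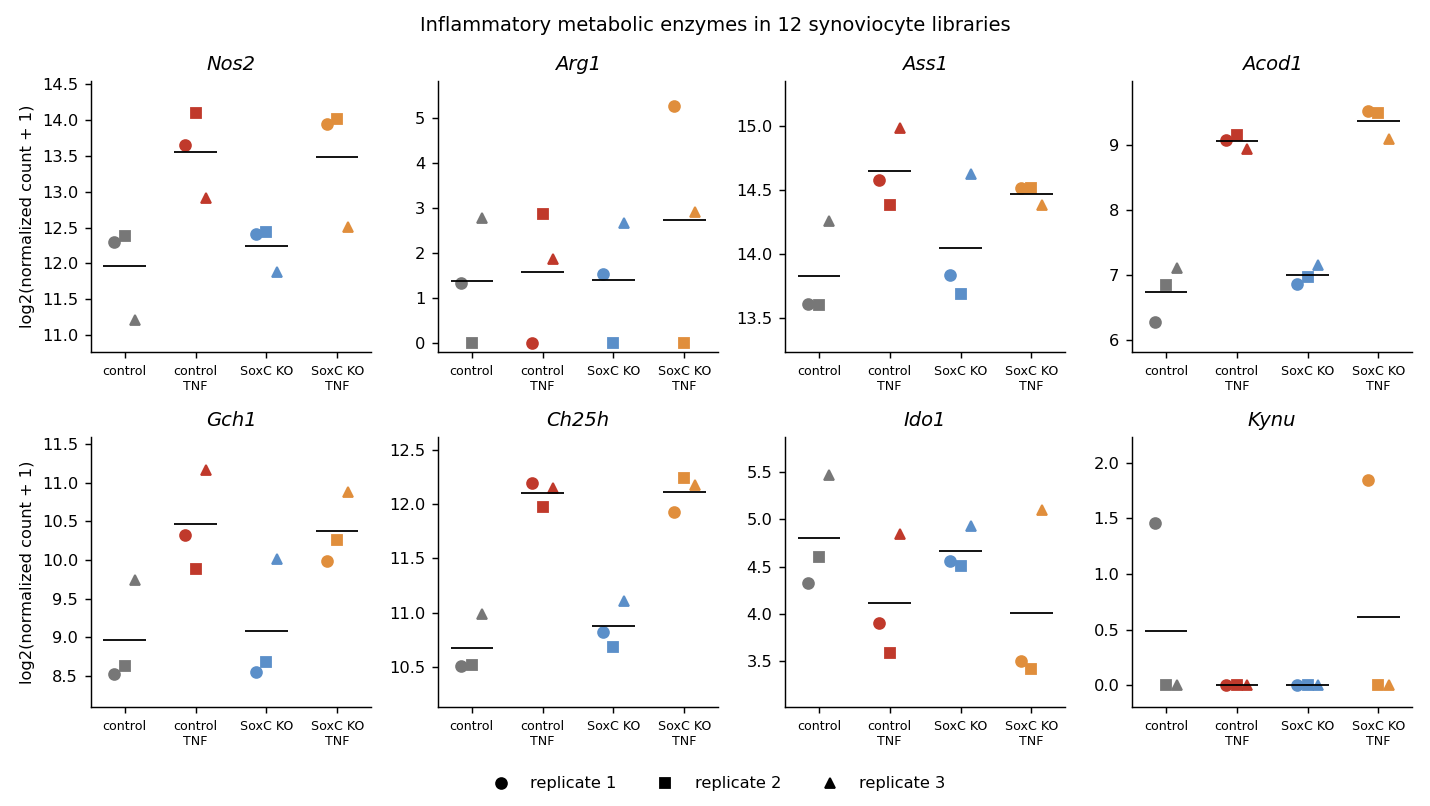
Level of each of the 8 enzymes in every library, as log2(normalized count + 1) on the vertical axis, by group on the horizontal axis. Symbols give the replicate number and the black bar the mean of 3 log2 values. Libraries with and without TNF do not overlap for Acod1, Ch25h and Nos2 in either genotype, and the libraries numbered 3 lie lower for Nos2 and higher for Gch1 in each group.

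Acod1 showed the largest TNF response of the 6 enzymes tested, 4.97-fold in control and 5.18-fold in knockout cells. In control cells it was at 76.9, 114 and 137 normalized counts in replicates 1 to 3, and with TNF at 543, 567 and 490. In knockout cells it was at 116, 124 and 142, and with TNF at 736, 721 and 544. Every TNF library lay above every library without TNF of the same genotype. The mean rose from 109 ± 30.2 to 533 ± 39.4 in control cells (SD, n = 3), a log2 change of 2.31 (SE 0.24, limma adjusted p = 0.00264). In knockout cells it rose from 127 ± 13.5 to 667 ± 107 (SD, n = 3), a log2 change of 2.37 (SE 0.24, limma adjusted p = 0.00198). In bulk RNA, more expressing cells and more RNA per cell cannot be told apart, here and below. Acod1 lies on chromosome 14 (mm10, 103046977 to 103056573, plus strand).

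Ch25h was the other enzyme called in both genotypes, 2.70-fold higher with TNF in control and 2.36-fold in knockout cells. It was at 1458, 1467 and 2029 in control and 4680, 4022 and 4557 in control_TNF, and at 1812, 1647 and 2207 in SoxC_KO and 3889, 4833 and 4619 in SoxC_KO_TNF. The groups with and without TNF did not overlap in either genotype. Its mean rose from 1651 ± 327 to 4420 ± 350 in control cells (SD, n = 3), by 1.43 on the log2 scale (SE 0.19, limma adjusted p = 0.0124). In knockout cells it rose from 1889 ± 288 to 4447 ± 495 (SD, n = 3), by 1.24 (SE 0.19, limma adjusted p = 0.0221). The call in control cells was lost when any of control replicate 1 or 2 or control_TNF replicate 1, 2 or 3 was left out (limma adjusted p = 0.0871, 0.101, 0.0888, 0.0522 and 0.0553). In knockout cells it was lost without control_TNF replicate 1 (0.0521), SoxC_KO replicate 1 or 2 (0.128 and 0.104) or SoxC_KO_TNF replicate 1, 2 or 3 (0.0767, 0.142 and 0.102). Its log2 change remained between 1.15 and 1.59 throughout these fits. Ch25h (chromosome 19, 34473786 to 34475135, minus strand) overlaps Gm26902, a long non-coding gene on the plus strand, over 357 bases. Gm26902 was at 89.9 to 194, and the strand setting of the counting is not known, so reads of this stretch may be shared between the genes.

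Of the 6 enzymes tested, Acod1 and Ch25h were thus the 2 called higher in control cells, where 0.32% of all genes tested were called (0.287% higher, 0.0331% lower). The same 2 were called higher in knockout cells, against 0.292% of all genes (0.243% higher, 0.0496% lower). They were also called higher for the average of both responses, against 1.17% of all genes (0.877% higher, 0.292% lower). No enzyme was called lower. The average log2 change was 2.34 for Acod1 (SE 0.17, limma adjusted p = 6.14e-05) and 1.34 for Ch25h (SE 0.14, limma adjusted p = 0.000614), and both remained called when any 1 library was left out. With limma fitted only to the 6 libraries of one genotype neither passed, Acod1 having adjusted p = 0.0821 in control and 0.0524 in knockout cells, and Ch25h 0.159 and 0.293.

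**Figure D2:**
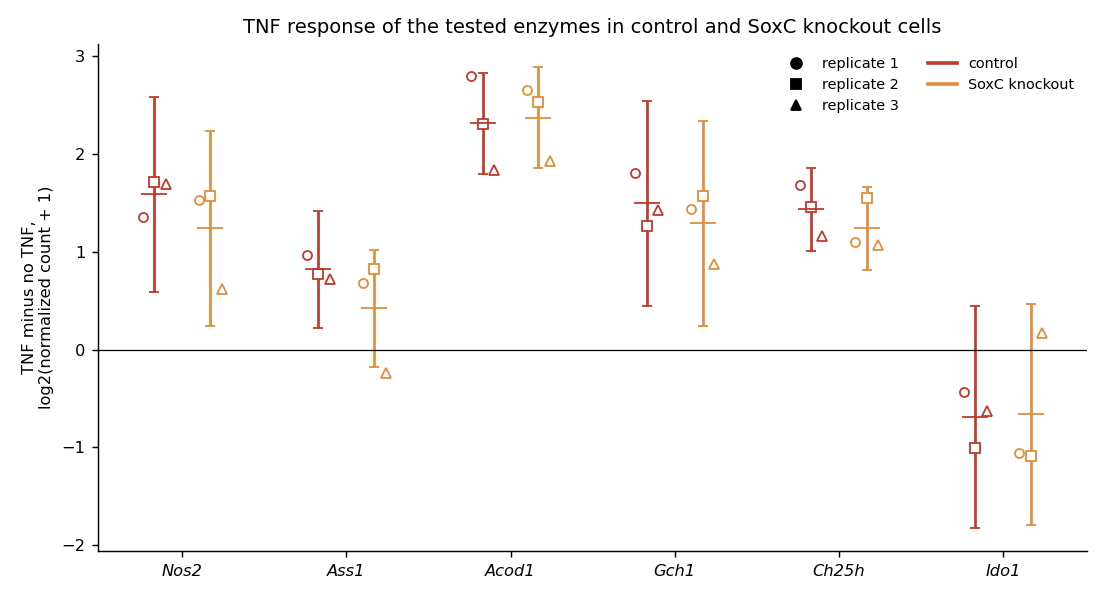
TNF response of the 6 tested enzymes in control and SoxC knockout cells, as the difference in log2(normalized count + 1). Horizontal ticks with bars are limma estimates with 95% confidence intervals, and open symbols the difference between same-numbered libraries. The intervals lie above 0 in both genotypes for Acod1, Ch25h, Nos2 and Gch1, and in control cells for Ass1. After adjustment only Acod1 and Ch25h passed. The intervals of the 2 genotypes overlap for every enzyme.

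Nos2 had higher means with TNF in both genotypes and a wide spread between libraries. It was at 5028, 5339 and 2371 in control and 12877, 17506 and 7682 in control_TNF, and at 5445, 5560 and 3766 in SoxC_KO and 15680, 16494 and 5803 in SoxC_KO_TNF. The groups did not overlap in either genotype, and replicate 3 was the lowest library of each group. The log2 change was 1.59 in control cells (SE 0.46, limma adjusted p = 0.417) and 1.24 in knockout cells (SE 0.46, limma adjusted p = 0.507), so Nos2 did not pass. With replicate number as a block Nos2 rose in both (limma adjusted p = 0.000525 and 0.00283). By replicate number, the log2 difference was 1.36, 1.71 and 1.70 in control cells and 1.53, 1.57 and 0.62 in knockout cells. Nos2 lies on chromosome 11 (78920787 to 78960254, plus strand).

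Gch1, the cofactor enzyme, lay higher with TNF for every replicate number in both genotypes, as did 19.9% of all genes in control cells and 15.8% in knockout cells. It was at 366, 394 and 856 in control and 1282, 946 and 2298 in control_TNF, and at 373, 410 and 1030 in SoxC_KO and 1009, 1219 and 1893 in SoxC_KO_TNF. The control groups did not overlap, while the knockout groups did, through SoxC_KO replicate 3. The log2 change was 1.497 in control cells (SE 0.48, limma adjusted p = 0.582) and 1.29 in knockout cells (SE 0.48, limma adjusted p = 0.511). With the replicate block Gch1 rose in both (limma adjusted p = 0.000719 and 0.00183). Gch1 lies on chromosome 14 (47153895 to 47189413, minus strand).

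Ass1, which starts the recycling of citrulline, was at 12466, 12449 and 19608 in control and 24413, 21335 and 32271 in control_TNF, and at 14570, 13180 and 25177 in SoxC_KO and 23379, 23313 and 21280 in SoxC_KO_TNF. The control groups did not overlap, but SoxC_KO replicate 3 lay above all 3 libraries of SoxC_KO_TNF. The log2 change was 0.82 in control cells (SE 0.27, limma adjusted p = 0.635) and 0.42 in knockout cells (SE 0.27, limma adjusted p = 0.792). With the replicate block it rose in control cells (limma adjusted p = 0.042) and did not pass in knockout cells (limma adjusted p = 0.221). Without the libraries numbered 3, Ass1 passed in knockout cells as well (log2 change 0.75, limma adjusted p = 0.0199). Ass1 (chromosome 2, 31470207 to 31520672, plus strand) shares 84.3% of the 31-base words of Gm5424, which was at 3.02 to 45.6, so the split of reads between the genes is uncertain.

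With replicate number as a block, 5 of the 6 tested enzymes rose in control cells (Nos2, Ass1, Acod1, Gch1 and Ch25h, against 1.71% of all genes called), 4 in knockout cells (without Ass1, against 2.78%) and 5 for the average response (against 5.19%). In that fit the average log2 change was 1.41 for Nos2 (limma adjusted p = 2.98e-05), 1.40 for Gch1 (2.86e-05) and 0.62 for Ass1 (0.0143). With the block and without the pair of libraries that held hepatocyte markers, Nos2 and Gch1 still rose in control cells (limma adjusted p = 0.0107 and 0.00694) and in knockout cells (0.0446 and 0.0226), and Ass1 passed in neither. Groups with and without TNF did not overlap for 5 of the 6 tested enzymes in control cells, where TNF libraries lay all higher for 4.6% of all genes and all lower for 4.11%. In knockout cells this held for 3 (Nos2, Acod1 and Ch25h), against 6.43% of genes higher and 6.4% lower.

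Ido1, which opens the kynurenine pathway, was low and did not pass the test. It was at 19.1, 23.2 and 43.3 in control and 13.9, 11.05 and 27.7 in control_TNF, and at 22.6, 21.7 and 29.5 in SoxC_KO and 10.4, 9.65 and 33.2 in SoxC_KO_TNF. The groups overlapped in both genotypes, and values correspond to an estimated 4 to 22.1 read pairs. The log2 change was -0.69 in control cells (SE 0.52, limma adjusted p = 0.998) and -0.66 in knockout cells (SE 0.52, limma adjusted p = 0.814), and it did not pass with the block either (0.444 and 0.28). It was lower with TNF for 3 of 3 replicate numbers in control cells, as were 22.1% of all genes, and for 2 of 3 in knockout cells, where 17.1% of all genes were lower for 3 of 3. Ido1 lies on chromosome 8 (24584136 to 24597009, minus strand).

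Kynu was at the limit of detection. It was listed at 0 in 10 of 12 libraries and at 1.75 in control replicate 1 and 2.59 in SoxC_KO_TNF replicate 1, about 1 read pair each. Kynu lies on chromosome 2 (43555329 to 43682715, plus strand). It shares 10.9% of the 31-base words of Gm48488, which was at 49.7 to 144, and 10.8% of those of Gm10038, at 0 to 4.98, so how reads were given to these genes is uncertain. No TNF response of Kynu could be measured at this depth.

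Arg1, which competes with Nos2 for arginine, was at or near 0 in most libraries. It was at 1.51, 0 and 5.88 in control and 0, 6.34 and 2.64 in control_TNF, and at 1.89, 0 and 5.37 in SoxC_KO and 37.5, 0 and 6.54 in SoxC_KO_TNF. In the 11 libraries other than SoxC_KO_TNF replicate 1 this was at most about 4 read pairs. SoxC_KO_TNF replicate 1, with an estimated 14.5 read pairs, also held the most hepatocyte markers, with albumin (Alb) at 2690 and the urea cycle gene Cps1 at 133. Their part in its Arg1 value was not tested. Ass1 was at 23379 in the same library and 23313 in replicate 2, a level at which a small added amount could not be seen. Gm5424, which shares words with Ass1, was at 45.6 in this library and at 3.02 to 22.4 in the others. Arg1 lies on chromosome 10 (24915221 to 24927484, minus strand).

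**Figure D3:**
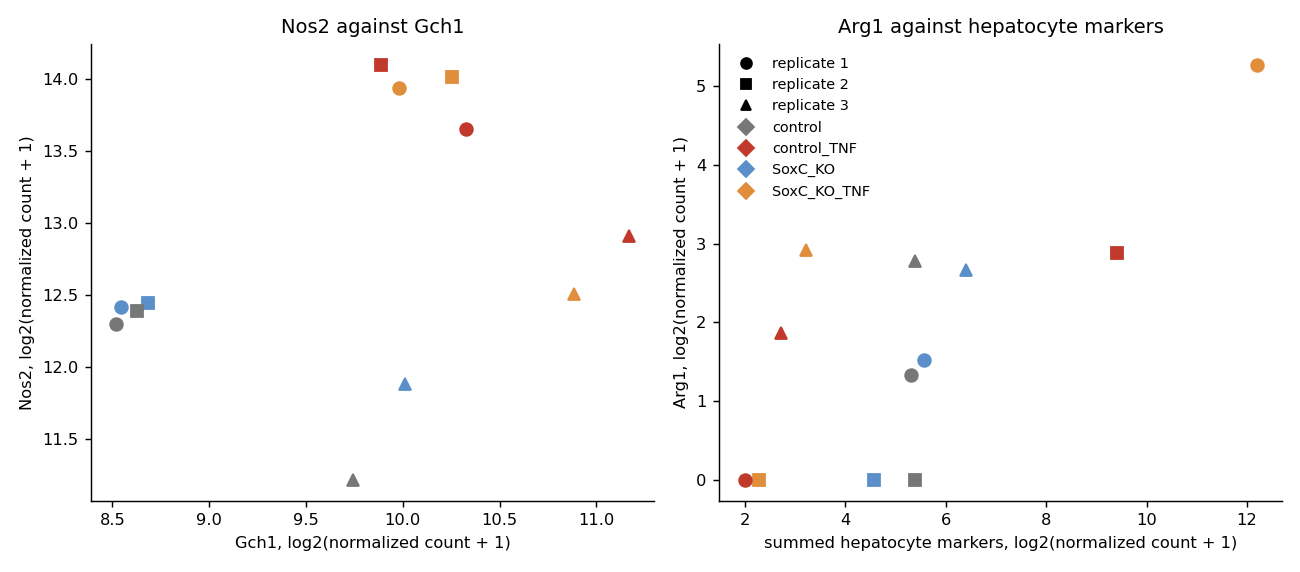
Left, Nos2 against Gch1, and right, Arg1 against the sum of 11 hepatocyte markers, each point 1 library and all axes log2(normalized count + 1). The libraries numbered 3 lie lower for Nos2 and higher for Gch1 in each group. SoxC_KO_TNF replicate 1 is highest on both axes of the right panel.

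No enzyme passed the test between knockout and control cells. Without TNF, 0 of the 6 tested passed (0.0% of all genes called by limma, with 176 of 18139 at unadjusted p under 0.05 and 826 with the block), and the log2 changes ran from -0.13 for Ido1 to 0.28 for Nos2. With TNF, again 0 passed (0.0% of all genes by limma, with 233 at unadjusted p under 0.05 and 1160 with the block), with values from -0.18 for Ass1 to 0.31 for Acod1. The libraries of control and knockout cells overlapped for each of the 6 enzymes in both settings. Of all genes, 2.39% lay all higher and 1.98% all lower in knockout cells without TNF, and 2.82% and 2.34% with TNF. Without TNF, Nos2, Ass1, Acod1, Gch1 and Ch25h were all higher in SoxC_KO than in control for 3 of 3 replicate numbers, as were 18.7% of all genes, while 20.3% were lower for 3 of 3. The shifts were small, from 0.12 for Gch1 to 0.28 for Nos2 on average. With TNF, Acod1 alone among the 6 was higher in knockout cells for 3 of 3 numbers (10.4% of all genes, with 10.2% lower), by 0.31 on average (95% confidence interval -0.21 to 0.83).

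The difference of the TNF responses, knockout minus control, did not pass for any enzyme (0 of 6, and 0.0% of all genes by limma, with 273 at unadjusted p under 0.05 and 3123 with the block). It was 0.06 for Acod1 (95% confidence interval -0.67 to 0.79), -0.19 for Ch25h (-0.80 to 0.41) and -0.40 for Ass1 (-1.24 to 0.44). For Nos2 it was -0.35 (-1.76 to 1.06), for Gch1 -0.20 (-1.69 to 1.28) and for Ido1 0.03 (-1.57 to 1.63). The limma adjusted p-values were 0.884 to 0.995. The SE of the difference with the replicate block was 0.25 for Nos2 and 0.24 for Gch1, against 0.64 and 0.68 without it, and neither passed (limma adjusted p = 0.441 and 0.65). These intervals do not show that the responses are alike.

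Nos2 and Gch1 both lay higher with TNF. In the libraries numbered 3, Nos2 lay lower and Gch1 higher than in the other libraries of the same group. The within-library difference, log2 Nos2 minus log2 Gch1, averaged 3.001 ± 1.33 in control and 3.09 ± 1.25 in control_TNF (SD, n = 3). It averaged 3.16 ± 1.12 in SoxC_KO and 3.11 ± 1.30 in SoxC_KO_TNF (SD, n = 3). These SD include the offset of the libraries numbered 3, so they do not measure the spread of the TNF change. By replicate number, the difference went from 3.78, 3.76 and 1.47 in control to 3.33, 4.21 and 1.74 in control_TNF. It went from 3.865, 3.76 and 1.87 in SoxC_KO to 3.96, 3.76 and 1.62 in SoxC_KO_TNF, so no direction was shared by all numbers. In the libraries numbered 3 the difference was 1.47, 1.74, 1.87 and 1.62, and in the other 8 it was 3.33 to 4.21. Nos2 was lowest in number 3 in all 4 groups, as were 24.7% of all genes, and Gch1 and Ido1 were highest there in all 4, as were 23.0% of all genes. The macrophage, neutrophil and endothelial marker sums were also highest in number 3 of each group, and the synoviocyte sum was lowest there. Their part in the values was not tested. Against Ass1 the Nos2 difference was -1.86 ± 1.03 in control and -1.09 ± 0.91 in control_TNF, and -1.80 ± 0.82 and -0.98 ± 0.77 in the knockout groups (SD, n = 3). It was closer to 0 with TNF for every replicate number, that is, Nos2 gained on Ass1. The difference to Arg1 ranged from 8.43 to 14.01 in all libraries on these counts, which are not set per length, and rests on few Arg1 reads. Ido1 minus Kynu was 1.66 to 5.47, with Kynu at 0 in 10 of the 12 libraries.

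Around these enzymes, a list of 83 other genes of the 5 pathways was followed, of which 82 were in the table and 75 were tested. None was called for TNF in control cells or in knockout cells taken singly, nor for either knockout comparison or the difference of responses. For the average TNF response 2 rose and 0 fell, Arg2 and Cyp7b1, and the other 73 did not pass. Of all genes tested, 0.877% were called higher and 0.292% lower for this response. The list's median average log2 change was -0.02, beside -0.001 for all genes tested.

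Arg2, the mitochondrial arginase, was detected in every library, unlike Arg1. It was at 35.7, 32.0 and 74.4 in control and 161, 143 and 173 in control_TNF, and at 31.05, 42.8 and 43.3 in SoxC_KO and 106, 103 and 177 in SoxC_KO_TNF. The groups with and without TNF did not overlap in either genotype. It rose on average by 1.75 on the log2 scale (SE 0.24, limma adjusted p = 0.00379), with 1.82 in control cells (limma adjusted p = 0.057) and 1.67 in knockout cells (0.0933). With the replicate block both single responses passed (limma adjusted p = 0.00197 and 0.00375).

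Cyp7b1, which further hydroxylates the 25-hydroxycholesterol that Ch25h makes, rose beside it. It was at 536, 575 and 436 in control and 1530, 1570 and 852 in control_TNF, and at 542, 573 and 431 in SoxC_KO and 1582, 1461 and 889 in SoxC_KO_TNF. The average log2 change was 1.31 (SE 0.21, limma adjusted p = 0.00924). Without the pair of libraries with hepatocyte markers it was 1.15 and did not pass (limma adjusted p = 0.082). Together Ch25h and Cyp7b1 make 7-alpha,25-dihydroxycholesterol, the ligand of the receptor Gpr183. Gpr183 itself was at 0 to 7.91 and was not tested.

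Slc7a2, a carrier that brings arginine into the cell, had the highest mean count of the listed arginine and nitric oxide genes, not set per length. It was at 5280, 5798 and 2410 in control and 10259, 16108 and 4661 in control_TNF, and at 5079, 5704 and 1550 in SoxC_KO and 16748, 14812 and 6710 in SoxC_KO_TNF. Like Nos2, it was lowest in replicate 3 of each group. Its average log2 change of 1.43 (SE 0.42, limma adjusted p = 0.203) did not pass. With the replicate block it rose in control cells (1.13, limma adjusted p = 0.00431) and in knockout cells (1.74, limma adjusted p = 0.000227).

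With the replicate block 3 genes of the list rose in control cells (Arg2, Slc7a2 and Cyp7b1), against 1.71% of all genes called in either direction. In knockout cells 5 rose (these with Nfe2l2 and Slc7a11), against 2.78%, and on average 9 rose, against 5.19%. None of the list fell. The other 4 of the 9 were Odc1 and Sat1, enzymes of polyamine metabolism, and Insig1 and Insig2, which hold back sterol synthesis, with average log2 changes of 0.42, 0.45, 0.38 and 0.41 (limma adjusted p = 0.04, 0.043, 0.0423 and 0.0257 with the block). The genes with the highest mean counts in the other pathways were Spr, a biopterin enzyme, at 2210 ± 1385 in control, Nfe2l2, an antioxidant regulator that itaconate activates, at 5222 ± 1240, Srebf2, a regulator of sterol synthesis, at 2636 ± 475, and Cyp1b1, a target of the kynurenine receptor Ahr, at 7062 ± 3528 (SD, n = 3). Of these Nfe2l2 was among the 5 in knockout cells (log2 change 0.66, limma adjusted p = 0.0139 with the block). The others did not pass in any comparison, with or without the block. Among the enzymes of the kynurenine pathway, levels differed. Afmid, which acts between Ido1 and Kynu, had a mean of 72.1 over the 12 libraries, and the aminotransferases Kyat1 and Kyat3 had means of 94.3 and 104.7. Ido2, the relative of Ido1, had a mean of 43.8. Kmo at 0 to 15.5, Haao at 0 to 23.1 and Qprt at 0 to 10.6 did not pass the filter.

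**Figure D4:**
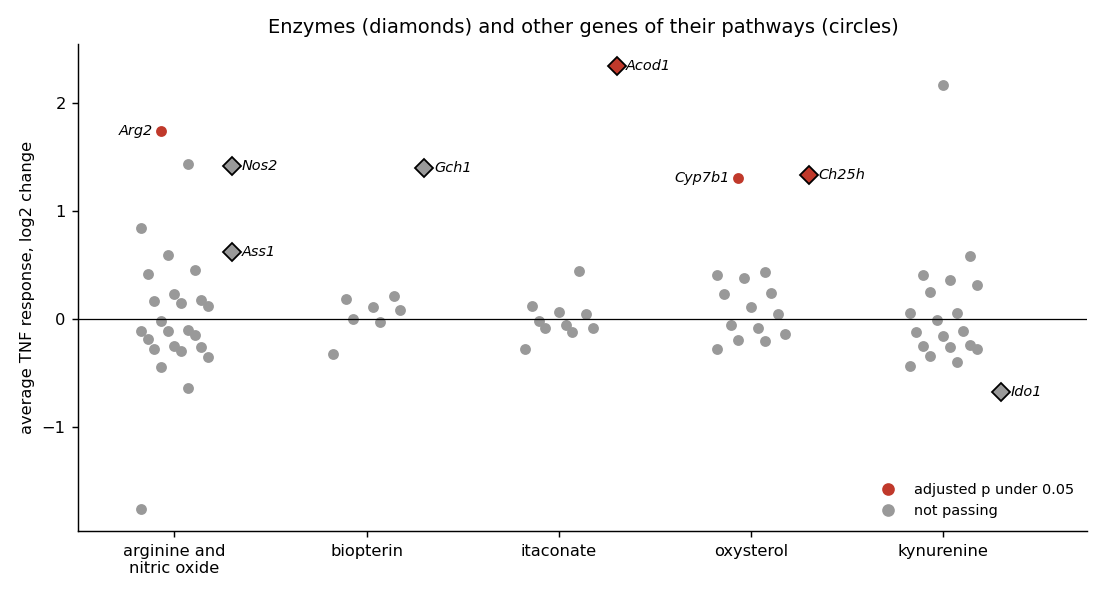
Average TNF response, in log2 units, of the 6 tested enzymes (diamonds) and the 75 other tested genes of their pathways (circles), by pathway. Red marks adjusted p under 0.05. Acod1, Ch25h, Arg2 and Cyp7b1 pass, and most other circles lie near 0.

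The genes whose levels most resembled the 2 called enzymes over the 12 libraries were sought among 11712 genes with a mean of at least 50. For Acod1 they were Trdc (Pearson r = 0.992), Icosl (0.981), a costimulatory ligand, and Dkk1 (0.980), a Wnt antagonist. For Ch25h they were the chemokines Cxcl3 (0.985) and Ccl5 (0.984) and the oxygen sensor Egln3 (0.984). These values describe likeness only, and the libraries share TNF exposure and replicate number. Among the 6 tested enzymes Acod1 and Ch25h were the most alike pair (r = 0.970), and Nos2 and Ido1 ran in opposite directions (r = -0.917).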

How the data were processed

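RNA-seq values of 12 libraries in 4 groups of 3 were read from the authors' deposited table. The authors deposited log2 values of read counts normalized per library, marked as normalized per the file headers. The log2 scale was read from the range and totals of the values. Values at or under 1 normalized count are listed as 0. They were raised to the power of 2 before analysis. The submitters' processing notes name the build mm10 and the tool DESeq. Aligner, annotation and strand setting: not given in the sources used here. Because normalized values are not counts, and only 53.5% to 60.2% of the low values fell on a whole read pair or midway between neighbours (tolerance 0.01), no count model was run.

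Genes with at least 10 normalized counts in at least 3 libraries (18139) were analysed as log2(normalized count + 1), which understates changes of low genes. limma 3.58.1 in R 4.3.3 fitted 1 mean per group to all libraries, with an intensity trend and Benjamini-Hochberg adjustment over all genes tested at 0.05, and was tested on simulated data. Exon lengths and overlaps came from GENCODE M21, which holds 99.8% of the table's gene identifiers. The members, gene lists and tests were chosen with earlier results of these data known. All members were named, with every list gene called in a comparison without the block, the gene with the highest mean count of each pathway and the 3 genes most like each called member. Slc7a11, Odc1, Sat1, Insig1, Insig2, Kmo, Haao, Qprt, Afmid, Kyat1, Kyat3, Ido2, Gpr183 and Tdo2 were named after their values were seen. The lists for neutrophils, endothelium, skeletal muscle, lymphocytes and dendritic cells summed to 482 to 2376, 319 to 506, 379.7 to 1285, 3.92 to 19.0 and 55.0 to 101 per library.

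Pairing by replicate number was checked on same-numbered libraries after group means were removed. Every r exceeded 0.1 for control against control_TNF (0.103, 0.550 and 0.715), SoxC_KO against SoxC_KO_TNF (0.340, 0.148 and 0.501) and control against SoxC_KO (0.457, 0.515 and 0.707), but not for control_TNF against SoxC_KO_TNF (0.0537, 0.189 and 0.526). The libraries numbered 3 stand apart in every group, so a positive r can arise without pairing. Differently numbered libraries were not compared. The sources used here do not say if equal numbers mark pairs, and the check cannot show it. Calls with the replicate block assume that equal numbers share an effect. Alternatives covered the pseudocount, filter, scaling, trend, libraries and the replicate block.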

Additional observations from a re-analysis of the deposited data

How the results depend on the processing

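The number of enzymes called, 2 for TNF in control cells, in knockout cells and on average and 0 for the other comparisons, did not change with a pseudocount of 0.5 or 5, no filter or a filter of 50, rescaling to equal totals, or no intensity trend. With equal upper quartiles 1 remained in knockout cells (Acod1, while Ch25h had a log2 change of 1.23, limma adjusted p = 0.0512). A fit to only the groups compared called 0 in each genotype. Without the pair of libraries with hepatocyte markers 1 remained in each genotype, Acod1, and Ch25h did not pass (limma adjusted p = 0.0828 and 0.118). Without the 4 libraries numbered 3, 5 were called in control cells, in knockout cells and on average. With the replicate block these counts were 5, 4 and 5, against 1.71%, 2.78% and 5.19% of all genes called. With the block, and chosen after seeing the data, they were 4, 4 and 4 without the hepatocyte-marker pair and 5, 5 and 5 without the libraries numbered 3. The share of all genes called is given only for the main fit and the replicate block. The other counts are therefore not read as particular to these enzymes. Leaving out 1 library gave 1 to 2 in control cells, 1 to 2 in knockout cells, 2 to 4 on average (4 without SoxC_KO replicate 3, with Ass1 and Gch1 added, 3 without control replicate 3, with Gch1 added, and 3 without SoxC_KO_TNF replicate 3, with Nos2 added, limma adjusted p = 0.0218) and 0 for the other comparisons.

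For the pathway list, 0 genes in each genotype and 2 on average became 3, 5 and 9 with the replicate block, 3, 4 and 8 without the libraries numbered 3, 3, 3 and 5 with the block without the hepatocyte-marker pair, and 3, 2 and 4 with the block without the libraries numbered 3. Leaving out 1 library gave 0 to 1 in control cells, 0 to 1 in knockout cells (Arg2 in both, without control replicate 3) and 2 on average. The block changed no call of the knockout comparisons or of the difference of responses. Shares of all genes called are given only for the main fit and the replicate block.

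Signs reversed for the following values, all of knockout comparisons or the difference of responses, where 0 enzymes passed in any setting run. With equal upper quartiles Ch25h for knockout with TNF was -0.0053 and Ido1 for the difference -0.0092. Without the libraries numbered 3, with or without the block, Ido1 for knockout without TNF was 0.0684, knockout with TNF was 0.0327 for Ass1, 0.10 for Nos2, 0.0105 for Gch1 and -0.0011 for Ch25h, and the difference was -0.35 for Ido1 and 0.0124 for Nos2. With the block and without the hepatocyte-marker pair the difference was -0.13 for Acod1. Leaving out 1 library in turn, the log2 changes for knockout without TNF ran from -0.0645 to 0.44 for Ass1, -0.37 to 0.20 for Ido1, -0.10 to 0.49 for Nos2 and -0.35 to 0.51 for Gch1. For knockout with TNF they ran from -0.65 to 0.26 for Ido1, -0.39 to 0.42 for Nos2, -0.37 to 0.27 for Gch1 and -0.0606 to 0.10 for Ch25h. For the difference they ran from -0.52 to 0.39 for Ido1, -0.67 to 0.14 for Nos2, -0.59 to 0.26 for Gch1 and -0.12 to 0.29 for Acod1. The causes were not tested. Depth limits Ido1, Arg1 and Kynu, which rest on few read pairs.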

Other observations

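Tdo2 and Haao, of the kynurenine pathway, were highest in the libraries with hepatocyte markers. Kmo, another gene of that pathway, was at 1.47 to 4.68 in control and 0 to 3.20 in control_TNF. In the knockout groups it was at 0 to 2.42 in SoxC_KO and 0 to 15.5 in SoxC_KO_TNF. Tdo2, which opens the pathway in hepatocytes, was at 65.8 in SoxC_KO_TNF replicate 1 and 15.5 in control_TNF replicate 2, and at 0 to 11.3 in the other 10 libraries. Haao, a later enzyme, was at 23.1 and 6.24 in the same pair of libraries, and at 0 to 3.02 in the others. These genes were named after their values were seen. Tdo2 reached 10 normalized counts only in control_TNF replicate 2 and SoxC_KO_TNF replicates 1 and 2. It thus passed the filter through TNF libraries alone. Its average TNF change of 2.17 on the log2 scale (SE 0.84, limma adjusted p = 0.445) did not pass, and its sign is not read as a result.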
